A study of Mus musculus with 8 samples.

Results

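Markers of fibro-adipogenic progenitors and fibroblasts were examined in RNA profiles of samples from regenerating mouse hindlimb. The set was chosen by gene name and holds 10 genes: Pdgfra, Dcn, Lum, Ly6a, Thy1, Postn, Mfap5, Dpp4, Pi16 and Gsn. The authors' deposited table has 20 rows for 8 of these genes, among 36743 rows for 16573 genes. It lists no row for Dpp4 or Pi16. The study compared a group labelled Ctrl with a group labelled Psat1iKO, with n = 4 libraries each. In both groups, injury was made in the tibialis anterior and extensor digitorum longus with notexin at 2 mg/mL, and samples were taken after 3 days. Notexin is a snake venom toxin that kills muscle fibres. The sources used here do not give the Cre driver, the deleted exons, the sex or the age of the mice, and the labels do not spell out iKO. By the labels the samples are muscle stem cells obtained by FACS, whereas the design text describes Trizol RNA of the muscles. Nothing states that libraries came from separate mice, so the authors' p-values measure a spread between libraries that may be technical.

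Fibro-adipogenic progenitors are mesenchymal cells that lie between muscle fibres. After injury they expand, lay down matrix and supply signals to muscle stem cells, and they are later cleared. They can form fibroblasts or adipocytes, and are usually recognised by the receptor PDGFRA and the surface protein SCA1, the product of Ly6a. Sorts of muscle stem cells commonly use SCA1 to exclude them, but the labels do not say which surface proteins were used here.

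Per kilobase of transcript, 7 of the 8 listed genes lay below 6 defining muscle stem cell markers, Pax7, Myf5, Cdh15, Myod1, Itga7 and Des, and Gsn lay above Pax7 and Myf5. A wider list of 19 muscle stem cell and myoblast genes ran from 3.21 to 15675 counts per kb and overlapped the fibroblast markers. Levels are mean normalized counts over all 8 libraries, summed over the rows of a gene and divided by the length of its longest coding transcript in GENCODE M21. Gsn had 1380 counts per kb, Thy1 149, Postn 132, Ly6a 76.9 and Dcn 70.4. Pdgfra had 10.5, Lum 9.44 and Mfap5 3.37 counts per kb. The order of the 8 genes was the same with the median coding transcript length. Levels per library were not analysed here, so neighbours in this order were not tested. Pax7, the transcription factor of muscle stem cells, had 329 counts per kb, and the myoblast factor Myod1 had 12261. Pdgfra stood at 3.18% of the Pax7 level and Gsn at 420%. The median over the 15231 genes with a matched length was 163 counts per kb, and Thy1 lay above 48.7% of them. Gelsolin, the product of Gsn, cuts and caps actin filaments in many cell types, so its level does not mark a cell type by itself.

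**Figure D1:**
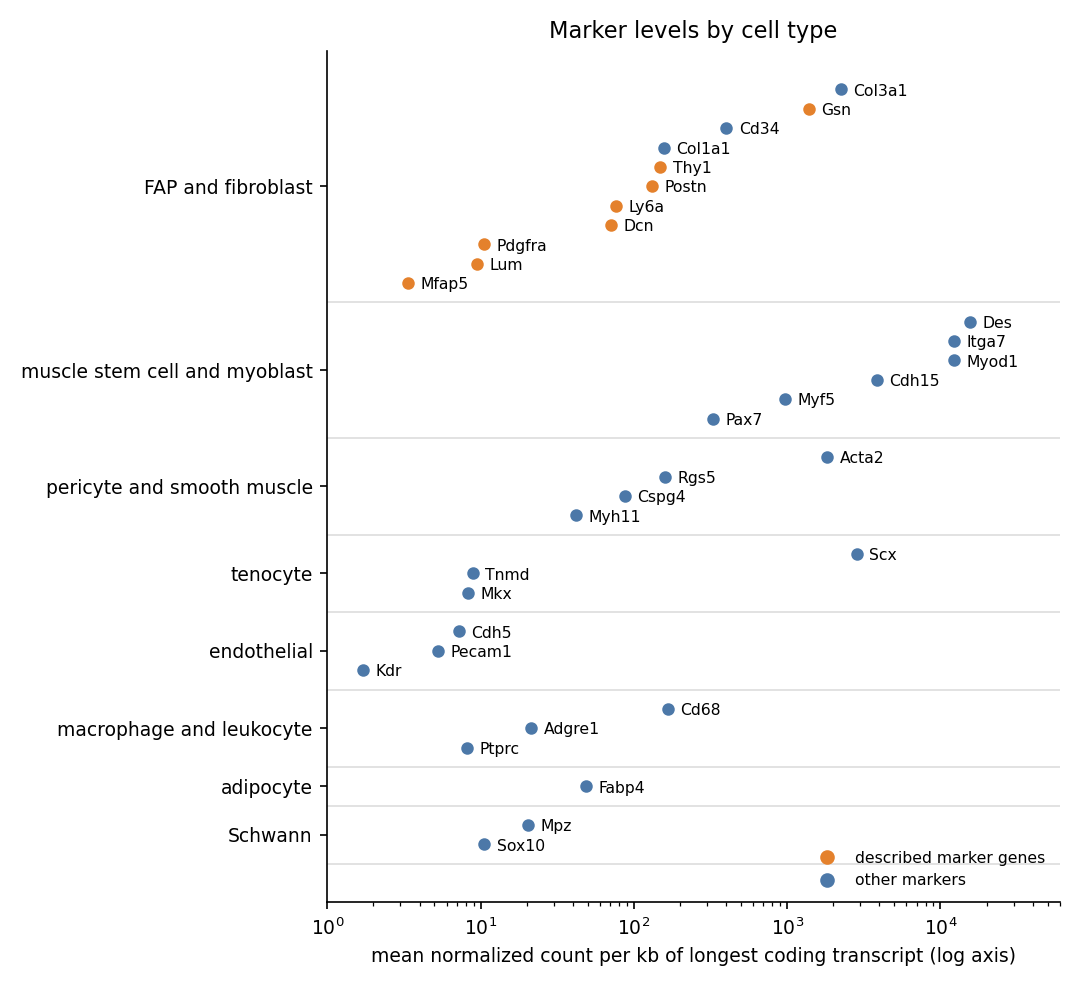
Level of each marker, as mean normalized count per kb of the longest coding transcript on a log axis, grouped by the cell type it marks. Orange points are the 8 described genes and blue points other markers. Pdgfra, Lum and Mfap5 lie between 3.37 and 10.5 counts per kb, and the 6 muscle stem cell markers plotted lie between 329 and 15675.

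Over the 51 listed genes of a wider fibroblast list the median was 55.4 counts per kb, against 73.7 for the 8 genes. Of 3 further defining markers, Col3a1, a fibrillar collagen, had 2232 counts per kb, the surface sialomucin Cd34 had 402 and the fibrillar collagen Col1a1 had 157. Markers of other cell types the material could hold ranged widely. The endothelial markers Pecam1, Cdh5 and Kdr lay between 1.70 and 7.22 counts per kb, and the leukocyte markers Ptprc, Adgre1 and Cd68 between 8.17 and 166. Pericyte and smooth muscle markers ranged from 41.9 counts per kb for Myh11 to 1826 for Acta2. The tenocyte marker Scx had 2838, whereas the tenocyte markers Tnmd and Mkx had 8.90 and 8.30. The adipocyte markers Adipoq and Plin1 and the macrophage marker Csf1r have no row. Fabp4, also an adipocyte marker, had 49.0 counts per kb. The table lists no row with a mean count under 2.22.

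In GRCm38, Pdgfra lies on chromosome 5 from 75152292 to 75198215, and Ly6a on chromosome 15 from 74994877 to 74998031. Thy1 lies on chromosome 9 from 44043384 to 44048579, Postn on chromosome 3 from 54361109 to 54391037, and Mfap5 on chromosome 6 from 122505845 to 122529290. Dcn, on chromosome 10 from 97479609 to 97518143, and Lum, from 97565128 to 97572703, are 47.0 kb apart. Gsn and Dpp4 share chromosome 2, from 35256380 to 35307892 and from 62330073 to 62412231. Pi16 lies on chromosome 17 from 29317680 to 29330593. Ly6a is the member whose reads are hardest to place. Of its distinct 50-base stretches in GENCODE M21, 19.0% also occur in transcripts of other genes, and 15.0% in its neighbour Ly6c1. For Pdgfra the share was 4.93%, most of it in the antisense gene Gm42802. It was 0 for Dcn, Lum, Thy1, Postn, Mfap5 and Gsn. Whether counting used strand is not given in the sources used here, so reads of Pdgfra and Gm42802 may not be told apart.

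The comparison asks whether these markers differ between genotypes in samples from the injured muscle. Whether these are sorted muscle stem cells or whole muscle is not settled by the sources, so the values cannot be read as the fibroblast content of the muscle. None of the 20 rows passed an adjusted p of 0.05 from DESeq2, 0 higher and 0 lower in Psat1iKO, per the authors' deposited table. Over all its rows 0.656% passed, 0.332% higher and 0.324% lower. The markers' count was also 0 under stricter and looser rules. The leading row is the one with a gene's highest mean. The share over the table was 0.482% with a 2-fold minimum, 0.972% at an adjusted p under 0.1, 0.489% after adjustment over rows whose mean reached 100, and 0.223% when adjusted over leading rows alone. At an unadjusted p under 0.05 there were 4 of 20 rows, Postn.3, Thy1, Pdgfra.1 and Postn.4, against 6.04% of all rows, and the Postn rows share a gene. Of the 8 leading rows, 6 lay above 0 and 2 below, with a median log2 fold change (Psat1iKO minus Ctrl) of 0.24. Over the leading rows of all genes 48.1% lay above 0 and the median was -0.01. Psat1 itself, on its leading row Psat1.1, had a log2 fold change of -0.49 ± 0.0675 (SE) with a DESeq2 adjusted p of 1.22e-09 per the authors' deposited table. In bulk RNA, fewer cells of a type and less RNA per cell cannot be told apart.

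**Figure D2:**
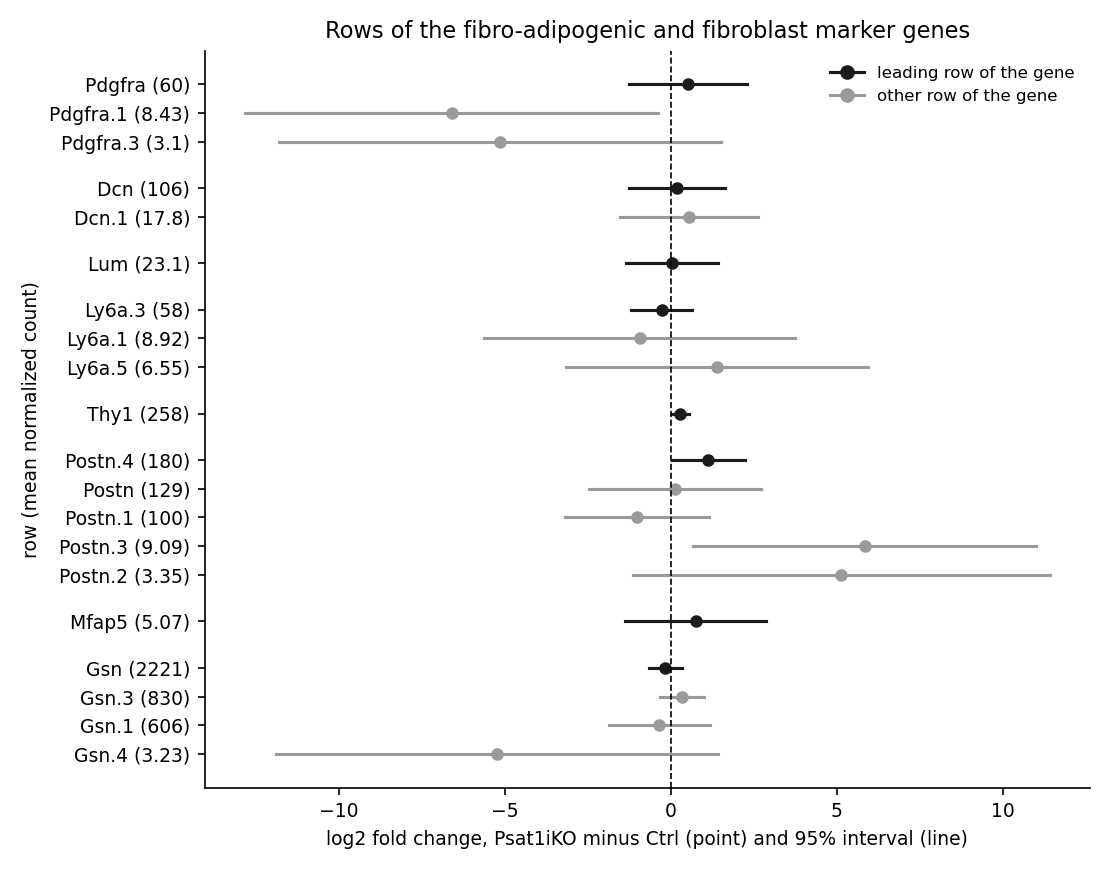
Log2 fold change of each of the 20 rows (points) with its 95% interval (lines), taken from the authors' deposited table. Mean normalized counts are in brackets, and black marks the leading row of a gene. The intervals of 16 rows cross 0; those of Pdgfra.1, Thy1, Postn.4 and Postn.3 do not, and no row passed an adjusted p of 0.05.

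Values per library were not analysed here. Group values are therefore fitted means, rebuilt from the deposited mean and fold change with equal group sizes, and each error is the standard error (SE) per the authors' deposited table.

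Among the surface proteins, no row of the 2 genes that define the progenitors passed an adjusted p of 0.05, and the 95% intervals of both leading rows crossed 0. Pdgfra encodes the receptor for PDGF-AA and PDGF-CC. Its leading row had a fitted mean of 49.5 in Ctrl and 70.4 in Psat1iKO. That row's log2 fold change was 0.51 ± 0.905 with a 95% interval from -1.26 to 2.28 (DESeq2 adjusted p 1 per the authors' deposited table). The other 2 rows had low means. Pdgfra.1 had a fitted mean of 16.7 in Ctrl and 0.172 in Psat1iKO, and Pdgfra.3 had 6.02 and 0.169. Their log2 fold changes per the authors' deposited table were -6.60 ± 3.18 and -5.16 ± 3.40, at unadjusted p of 0.0377 and 0.129. Summed over rows, Pdgfra stood at 72.2 in Ctrl and 70.8 in Psat1iKO, a log2 difference of -0.03. The fitted gene totals were thus close, while the leading row lay above 0 and both minor rows below. A total has no error here, so equality of the groups was not tested.

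Ly6a encodes SCA1, a small protein anchored to the membrane by a lipid. The leading row Ly6a.3 had fitted means of 63.6 in Ctrl and 52.4 in Psat1iKO, with a log2 fold change of -0.28 ± 0.470 per the authors' deposited table. The interval ran from -1.20 to 0.64. Its rows Ly6a.1 and Ly6a.5 had mean counts of 8.92 and 6.55 and pointed in opposite directions, at -0.94 ± 2.39 and 1.40 ± 2.32 per the authors' deposited table. The gene total was 78.9 in Ctrl and 68.1 in Psat1iKO. Ly6c1, which shares sequence with it, had rows with means of 9.75 and 11.8 per the authors' deposited table.

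Thy1 encodes CD90, a lipid-anchored glycoprotein of fibroblasts, neurons and T cells. It has 1 row, with fitted means of 233 in Ctrl and 284 in Psat1iKO. The log2 fold change was 0.28 ± 0.130, with an interval from 0.03 to 0.54 and an unadjusted p of 0.0294 per the authors' deposited table. The DESeq2 adjusted p was 0.666 there, so the row was not called. It was the most precisely measured of the 8 genes, and a difference of 0.47 on the log2 scale, 1.38-fold, would have reached the smallest Wald statistic that was called, 3.59.

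Among the matrix proteins, the estimates of Dcn and Lum lay near 0 and those of Postn and Mfap5 above it, with wide errors. Decorin, from Dcn, and lumican, from Lum, are small leucine-rich proteoglycans that bind collagen fibrils. The leading row of Dcn had fitted means of 99.0 in Ctrl and 113 in Psat1iKO and a log2 fold change of 0.19 ± 0.741 per the authors' deposited table. Dcn.1 had 14.4 and 21.2, at 0.56 ± 1.06 per the authors' deposited table. Both rows thus lay above 0, and both intervals reached past a 2-fold difference in either direction. Lum had fitted means of 22.8 and 23.4 and a log2 fold change of 0.04 ± 0.708 per the authors' deposited table, with an interval from -1.35 to 1.43. A 2-fold difference in Lum could therefore not be told from none.

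Postn encodes periostin, a matricellular protein of healing and fibrotic tissue whose transcript is known to be spliced in several forms. It has 5 rows, the most of the set. The leading row Postn.4 had fitted means of 113 in Ctrl and 248 in Psat1iKO, at 1.14 ± 0.562 with an unadjusted p of 0.0435 per the authors' deposited table (DESeq2 adjusted p 0.789). The row Postn had 124 and 135, at 0.12 ± 1.33, and Postn.1 had 135 and 66.3, at -1.02 ± 1.11 per the authors' deposited table. Postn.3 had 0.313 in Ctrl and 17.9 in Psat1iKO, at 5.84 ± 2.63, and Postn.2 had 0.185 and 6.52, at 5.14 ± 3.2 per the authors' deposited table. The row Postn.3 had an unadjusted p of 0.0268 and a DESeq2 adjusted p of 0.642 per the authors' deposited table. Over all 5 rows the fitted mean was 371 in Ctrl and 473 in Psat1iKO. That is 0.35 on the log2 scale, against 1.14 for the leading row.

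Mfap5 encodes MAGP2, a protein of microfibrils. It was the lowest of the listed genes, with fitted means of 3.79 in Ctrl and 6.35 in Psat1iKO. Its log2 fold change was 0.75 ± 1.09 per the authors' deposited table, with an interval from -1.39 to 2.88. Dpp4, a membrane peptidase, and Pi16, a secreted or membrane-bound protein, mark a progenitor population of fibroblasts in many mouse tissues. Neither has a row, so no level or difference can be given for them.

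Gsn had the highest level of the set, and the 95% intervals of its 4 rows crossed 0. The leading row had fitted means of 2347 in Ctrl and 2095 in Psat1iKO, at -0.16 ± 0.255 per the authors' deposited table, with an interval from -0.66 to 0.34. Gsn.3 had 735 and 926, at 0.33 ± 0.340, and Gsn.1 had 677 and 534, at -0.34 ± 0.770 per the authors' deposited table. The 3 main rows thus pointed both ways. Gsn.4, with a mean of 3.23, had a fitted mean of 6.30 in Ctrl and 0.169 in Psat1iKO, at -5.22 ± 3.40 per the authors' deposited table. The gene total stood at 3766 and 3555, which is -0.08 on the log2 scale.

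In 4 of the 5 genes with more than 1 row, rows lay on both sides of 0, against 80.2% of the 8131 genes with more than 1 row in the whole table, so this is no feature of the markers. In Pdgfra, all rows below 0 had a fitted mean under 1 in Psat1iKO. The leading row made up 68.5% of Pdgfra in Ctrl and 99.5% in Psat1iKO. Postn.4 held 30.4% of its gene's fitted mean in Ctrl and 52.4% in Psat1iKO, and Postn.1 held 36.2% and 14.0%. The leading row of Dcn held 87.3% and 84.2%, that of Ly6a 80.6% and 77.1%, and that of Gsn 62.3% and 58.9%. These shares have no test, since no error of a share can be had from the deposited values. Of the 20 rows, 8 had a mean count under 10, and in 5 the fitted mean of a group was under 1 count, so that the exact fold of those rows is loosely set. GENCODE M21 gives 9 transcripts for Pdgfra, 9 for Postn, 7 for Gsn, 6 for Ly6a and 5 for Dcn. The rows cannot be matched to any of them, since the annotation used for counting is not given in the sources used here.

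**Figure D3:**
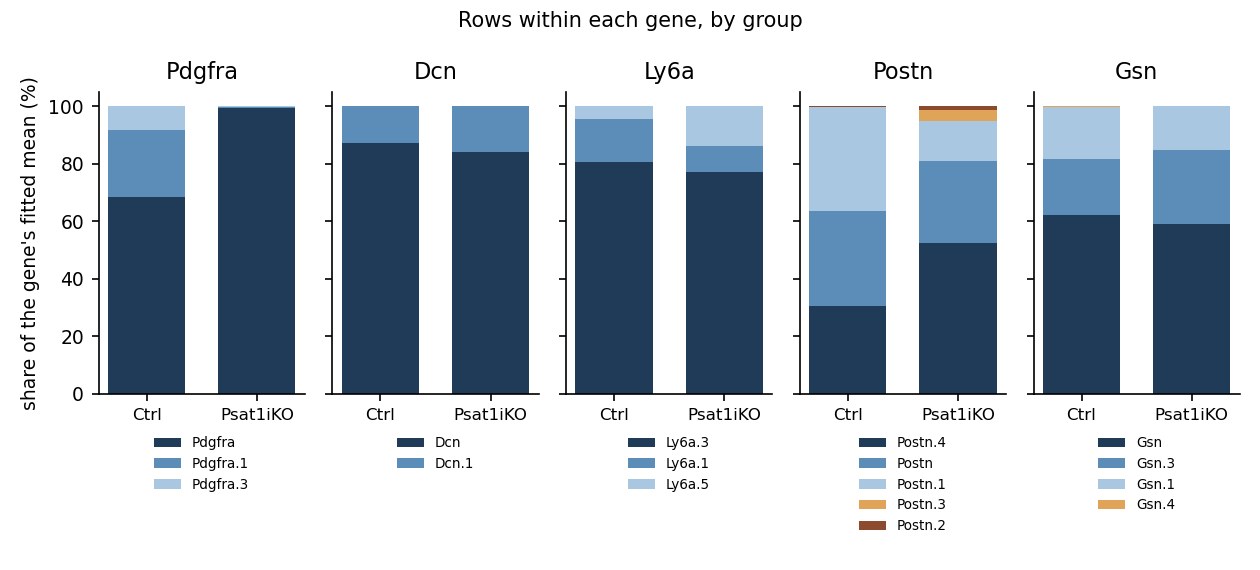
Share of each row in the fitted mean of its gene (%), in Ctrl and Psat1iKO, for the 5 genes with more than 1 row. Bars stack to 100% and have no error, and the leading row of Postn has 30.4% in Ctrl and 52.4% in Psat1iKO while that of Dcn has 87.3% and 84.2%.

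The errors were large for genes of these means. For 7 of 8 leading rows the SE exceeded the median SE of leading rows within 2-fold of the same mean count. The ratio was 3.28 for Gsn, 2.30 for Dcn, 2.25 for Postn and 2.21 for Pdgfra. It was 1.19 for Lum, 1.13 for Ly6a, 1.05 for Mfap5 and 0.626 for Thy1. Over all genes 48.8% of leading rows had a ratio above 1. Genes with more than 1 row had a median ratio of 1.20 and genes with 1 row 0.868. The 3 markers with 1 row, Thy1, Lum and Mfap5, were among the 4 lowest ratios of the set. Large ratios were not particular to fibroblast markers, since 16 of 19 muscle stem cell and myoblast genes and 11 of 11 macrophage and leukocyte genes also had a ratio above 1.

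The SE of a DESeq2 fit follows from the counts and a dispersion, so the spread between libraries that the fit assumed can be worked out from it. This implied coefficient of variation between libraries is the square root of the dispersion and leaves out the noise of counting. It was 11.1% for Thy1 and 24.9% for the leading row of Gsn. It was 44.1% for Ly6a.3, 54.6% for Postn.4, 66.3% for Lum and 72.0% for Dcn. Pdgfra had 87.7% and Mfap5 96.2%, on low counts. The median over all leading rows was 20.7%. Only 2 of the 8 leading rows, Thy1 and Gsn, had a 95% interval inside a 2-fold difference in either direction, or 25.0%, against 62.0% over all genes. To reach the smallest statistic that was called, Pdgfra needed a 9.53-fold difference, Dcn 6.34-fold, Lum 5.84-fold, Postn.4 4.06-fold, Ly6a.3 3.22-fold and Gsn 1.89-fold.

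**Figure D4:**
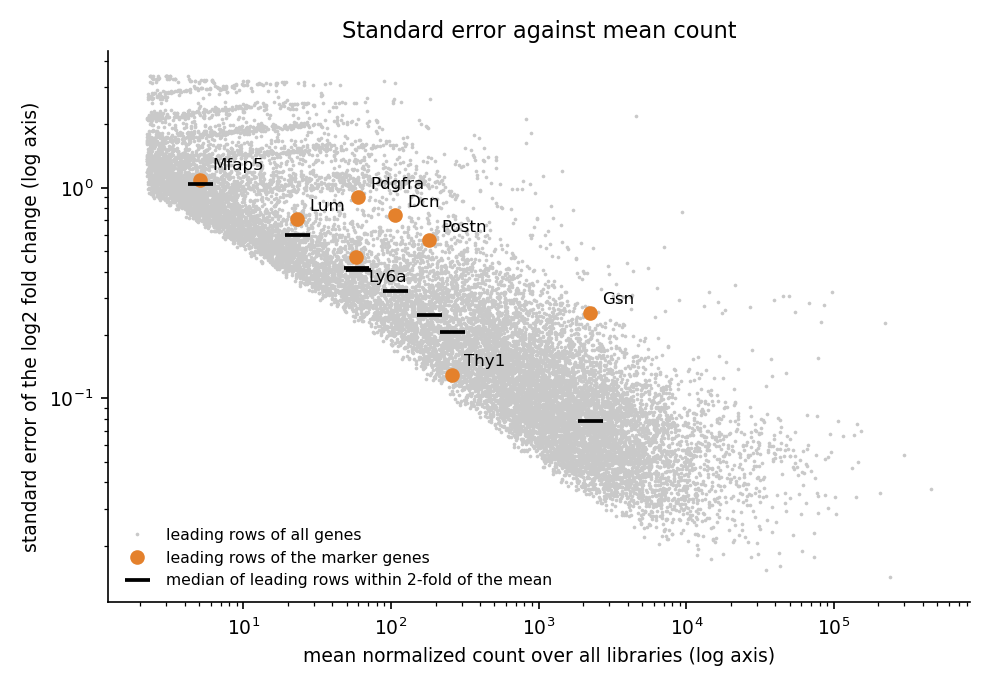
Standard error of the log2 fold change against mean normalized count, both on log axes, for the leading row of every gene (grey) and of the 8 marker genes (orange). Black bars give the median SE of leading rows within 2-fold of each marker's mean; Gsn lies 3.28 times above its bar and Thy1 at 0.626 times.

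A wider list of 54 other fibro-adipogenic and fibroblast markers also gave no call, with 51 listed. Per the authors' deposited table, 0 leading rows passed a DESeq2 adjusted p of 0.05, against 0.338% over all genes, and 0 of the genes' 77 rows did. At an unadjusted p under 0.05 there was 1 higher and 1 lower, against 4.09% of all leading rows, 1.86% higher and 2.23% lower. The median log2 fold change was 0.06, with 32 of 51 above 0. Col15a1, a collagen of basement membrane zones, had 1.94 ± 0.691 on fitted means of 22.0 and 84.3, with a DESeq2 adjusted p of 0.276 per the authors' deposited table. Fbn1, the microfibril protein fibrillin-1, had -0.31 ± 0.105 on its leading row (DESeq2 adjusted p 0.212 per the authors' deposited table), while its other row, Fbn1.1, had 1.04 ± 0.396 with an unadjusted p of 0.0089 and a DESeq2 adjusted p of 0.385 per the authors' deposited table. The summed rows of Fbn1 stood at 3047 and 3156. Dlk1, a Notch-like membrane protein, had 1.02 ± 0.588, and Sfrp2, a secreted Wnt antagonist, -0.81 ± 0.485 per the authors' deposited table. The abundant collagen gene Col1a2 had -0.0026 ± 0.111 and Vcam1, which muscle stem cells also express, 0.05 ± 0.0832 per the authors' deposited table. The 95% intervals of both lay inside a 2-fold difference.

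Among ligands and receptors around Pdgfra, 7 of 8 leading rows, or 87.5%, had an interval inside a 2-fold difference. The share over all genes was 62.0%. Of 9 genes of PDGF ligands, receptors and their processing, 8 were listed, 0 were called, and the median log2 fold change was -0.10. Pdgfb, the B chain ligand, had -0.12 ± 0.104 and Furin, a protease that matures growth factors, -0.27 ± 0.198 per the authors' deposited table. The pericyte receptor Pdgfrb had 1.44 ± 1.10 on its leading row, with summed fitted means of 79.1 in Ctrl and 152 in Psat1iKO. Plat and Plau, plasminogen activators, had -0.14 ± 0.142 and -0.14 ± 0.134 per the authors' deposited table.

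Relatives of decorin and lumican gave the 1 call in the matrix families. Of 15 small leucine-rich proteoglycans, 11 were listed, with 7 above 0, a median of 0.41 and 1 leading row called, Aspn.1. Over the leading rows of all genes 48.1% lay above 0 and 0.338% were called. Aspn encodes asporin, a proteoglycan of collagen-rich tissue. Aspn.1 had fitted means of 0.190 in Ctrl and 55.6 in Psat1iKO, at 8.19 ± 2.14 with a DESeq2 adjusted p of 0.0259 per the authors' deposited table. The other row, Aspn, had -2.31 ± 1.86 per the authors' deposited table, and the gene total was 37.2 in Ctrl and 63.1 in Psat1iKO. Adjusted over leading rows alone, Aspn.1 had an adjusted p of 0.0547 and was not called. Biglycan, from Bgn, had 0.41 ± 0.369 and osteomodulin, from Omd, -0.26 ± 0.369 per the authors' deposited table. Kera and Epyc, proteoglycan genes of the same family, have no row.

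Relatives of periostin and of Mfap5 gave no call. Of 11 matricellular genes 10 were listed, with 5 above 0 and a median of -0.03. Thbs1, thrombospondin-1, had -0.30 ± 0.137 at an unadjusted p of 0.0295, and tenascin C, from Tnc, 0.47 ± 0.241 at 0.0528 per the authors' deposited table. Ccn2, which encodes a connective tissue growth factor, had 1.13 ± 0.845 per the authors' deposited table, with fitted means of 324 and 708. Sparc, which encodes the collagen-binding protein osteonectin, had 0.05 ± 0.110 per the authors' deposited table. All 19 microfibril and elastic fibre genes were listed, with 11 above 0, a median of 0.01 and 0 called. Mfap4 had 2.05 ± 1.18 on a mean count of 9.30 per the authors' deposited table. Of 14 genes of the Ly6 family and other lipid-anchored surface proteins 11 were listed, with 5 above 0, a median of -0.01 and 0 called. Ly6e, a widely expressed family member, had 0.08 ± 0.0865 per the authors' deposited table.

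Markers of other cell types are given beside these values. Of 15 pericyte and smooth muscle markers 12 had a leading row above 0, with a median of 0.94 and 0 leading rows called. Summed fitted means of this list were 59657 in Ctrl and 60359 in Psat1iKO. Most of that was Des, also a muscle stem cell and myoblast marker here, with 48317 and 46611. Summed over Rgs5, Acta2, Myh11 and Cspg4 alone, fitted means were 4698 in Ctrl and 5997 in Psat1iKO. The minor row Myh11.2, of smooth muscle myosin, was called at 4.80 ± 1.33 (DESeq2 adjusted p 0.0466) per the authors' deposited table. That was 1 call in the 26 rows of this list, against 0.656% of all rows. The leading row Myh11.4 had 1.10 ± 0.692, Myh11.1 2.71 ± 3.03 and the row Myh11 -1.55 ± 1.14 there, and none of them was called. Rgs5, a pericyte marker, had 1.04 ± 0.352 per the authors' deposited table. Of 11 tenocyte markers 10 were listed, 9 of them above 0, with a median of 0.45 and 0 called. Summed over the list, fitted means of the tenocyte markers were 5153 in Ctrl and 5683 in Psat1iKO. All 11 listed macrophage and leukocyte markers, of 17, lay below 0, with a median of -1.75, 0 called and summed fitted means of 3409 and 784. Their errors were wide, with a median SE of 1.04 and a median implied coefficient of variation of 101%. Without values per library, it cannot be seen whether a few libraries set these values. Lyz2, a lysozyme gene of myeloid cells, had -2.63 ± 1.14 per the authors' deposited table, and made up 1849 and 299 of the summed fitted means. Of 13 endothelial markers 4 lay above 0, with a median of -0.50, 0 called and summed fitted means of 528 and 500. The part of these other cell types in the values of Postn, Thy1 or any fibroblast marker was not tested.

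Muscle stem cell and myoblast genes had the largest summed fitted mean of the lists. All 19 were listed, with 12 above 0 and a median of 0.07. Against 0.338% of all leading rows, 1 of these 19 was called, Myod1. That gene had 0.16 ± 0.0386 with a DESeq2 adjusted p of 0.0058 per the authors' deposited table. The sum of fitted means over this list was 189248 in Ctrl and 187907 in Psat1iKO. For the 8 fibroblast marker genes it was 4661 and 4615, of which Gsn made up most.

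**Figure D5:**
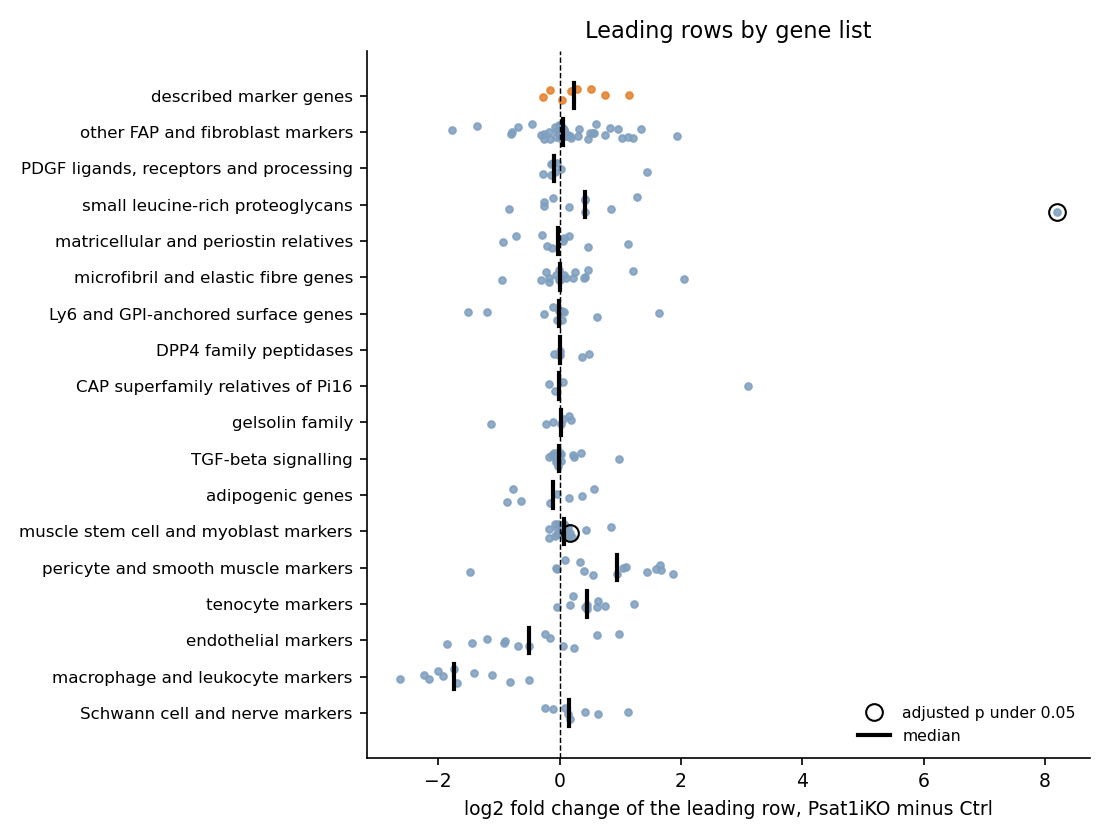
Log2 fold change of the leading row of each listed gene (points), by list, with the list's median (black bar) and circles around rows with a deposited adjusted p under 0.05. The 8 described genes (orange) span -0.28 to 1.14 around a median of 0.24, and only Aspn.1 and Myod1 are circled.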

How the data were processed

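Per the labels and design text, 250 ng of RNA was selected for poly(A) and went into a NEBNext Ultra II kit. HISAT2 2.2.1, DESeq2 (listed as 4.2.0) and mm10 are named in the submitters' processing notes. The sources used here do not name the counting program, the annotation or the filters. The deposited table of 1 comparison gives, per row, the authors' mean of normalized counts over all 8 libraries (a signal), a deposited log2 fold change with its SE, the authors' Wald statistic (a score), and a deposited p-value, adjusted as well, where the adjustment equals Benjamini-Hochberg adjustment over all rows to within 1.39e-05. The library depth is unknown. Deposited tables of enriched terms, with the authors' log10 of p and q, served to check the sign: Eno1b is among terms higher in Psat1iKO.

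Names ending in a dot and digits were taken as rows of 1 gene. The sign was turned to Psat1iKO minus Ctrl. Gene totals sum fitted means, counting 31 rows identical to another row of their gene once. The 95% intervals take the fold change as normal and cover the authors' error only. Dispersions implied by the SE assume libraries of equal size. Their largest value over the table was 10.02, and 0.185% came out negative. Lengths, loci and 50-base matches come from GENCODE M21 (GRCm38), with 91.9% of genes matched by symbol. Calculations used Python 3.11.15, numpy 2.4.6 and pandas 2.3.3 and were tested on simulated data. The simulated SE came from the same formula that was inverted, with large dispersions capped. Recovery of the dispersions there checks the arithmetic alone. A call is the authors' adjusted p under 0.05.

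Members and lists were chosen with earlier results of these data known. Named genes are all member rows, Psat1, and per list up to 4 leading rows of smallest p and 2 of highest mean. Rows named as called (Myh11.2, Svil.2, Pmp22), the other rows of Myh11 and Pmp22, the second rows of Aspn and Fbn1, Ly6c1, Kera and Epyc were named after their values were seen. Genes of like pattern across libraries were not sought, since values per library were not analysed here.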

Additional observations from a re-analysis of the deposited data

How the results depend on the processing

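With 0 of 20 marker rows called, the count stayed 0 when p was adjusted over rows with a mean of at least 100, over leading rows alone, with a 2-fold minimum, and at an adjusted p under 0.1. It was 4 at an unadjusted p under 0.05. The wider fibroblast list likewise had 0 under those alternatives and 2 at an unadjusted p under 0.05. The family and cell type lists had 2 called leading rows, Aspn.1 and Myod1. With a mean minimum of 100 there was 1, and likewise 1 over leading rows alone, 1 with a 2-fold minimum and 11 at an unadjusted p under 0.05. Over all leading rows 0.338% were called, 0.223% when adjusted over leading rows alone, and 4.09% had an unadjusted p under 0.05. The number of genes tested is given with each list, and some genes, such as Des, are on more than 1 list. The median of the 8 leading rows, 0.24, ranged from 0.14 with rows summed to 0.31 as a mean. Pdgfra alone changed sign with rows summed, to -0.029. Leaving out libraries, another normalization and a count test could not be run without values per library. No paired analysis was possible because the table holds no values per replicate. Mean counts under 10 limit Mfap5 and 7 minor rows.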

Other observations

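All 16 genes of TGF-beta signalling, which drives matrix production in fibroblasts, were listed, with 7 above 0, a median log2 fold change of -0.01 and 0 called. The ligand Tgfb1 had -0.17 ± 0.159 and its receptor Tgfbr2 -0.06 ± 0.0548 per the authors' deposited table. Of 16 such leading rows 15 had a 95% interval inside a 2-fold difference, or 93.8%, against 25.0% for the 8 fibroblast markers. The TGF-beta genes had the higher median level, 522 against 73.7 counts per kb. The share was 49.0% for the wider fibroblast list, 27.3% for small leucine-rich proteoglycans, 26.7% for pericyte and smooth muscle markers and 20.0% for tenocyte markers. Of 13 adipogenic genes 8 were listed, with 3 above 0, a median of -0.10 and 0 called. Pparg, the main regulator of fat cell formation, had -0.86 ± 0.396 on its leading row with an unadjusted p of 0.0292 (DESeq2 adjusted p 0.666) per the authors' deposited table. Its summed rows stood at 180 in Ctrl and 141 in Psat1iKO.

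Relatives of the members without a row were measured in part. Of 8 peptidases related to Dpp4, 6 were listed, with 4 above 0, a median of 0.01 and 0 called. Dpp9 had -0.10 ± 0.0495 and Dpp3 0.01 ± 0.0431 per the authors' deposited table, while Fap, a fibroblast peptidase, has no row. Of 8 relatives of Pi16 in the CAP superfamily 4 were listed, with a median of -0.01 and 0 called. Crispld2 had 3.11 ± 3.16 on its leading row per the authors' deposited table. Its 95% interval ran from -3.08 to 9.29. All 7 relatives of gelsolin were listed, with 4 above 0 and a median of 0.02. Their leading rows gave 0 calls. The minor row Svil.2, of supervillin, was called at -7.95 ± 2.13 (DESeq2 adjusted p 0.0331) per the authors' deposited table, while the leading row Svil had -0.22 ± 0.336. That was 1 call in the 26 rows of these relatives, against 0.656% of all rows. Of 9 Schwann cell and nerve markers 8 were listed, with 6 above 0, a median of 0.16 and 0 leading rows called. The minor row Pmp22, with a mean of 22.2, was called at -8.00 ± 2.14 (DESeq2 adjusted p 0.0329) per the authors' deposited table. The leading row Pmp22.6, with a mean of 859, had 0.09 ± 0.110, and Pmp22.3 had 0.93 ± 0.635 there. That was 1 call in the 21 rows of this list, against 0.656% of all rows.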
